A study of Mus musculus with 45 samples.

Results

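The promoters of the cytosolic ribosomal protein genes were followed by ATACseq, in which the transposase Tn5 cuts and tags open DNA, while mouse embryonic stem cells lost SOX2, OCT4 or NANOG. Members were the peaks whose summit lay within 500 bp of the start of a protein-coding transcript of a gene named Rpl or Rps with a number, of Rplp0 to Rplp2 or of Rpsa in GENCODE vM21. Genes for S6 kinases, pseudogenes and ribosomal-protein-like genes were left out, 25 names in all. By this rule 79 of 184964 peaks were members, at 75 of 77 genes, 44 of the large and 31 of the small subunit. Rpl4 and Rpl41 had no member, since the summits nearest to their starts lay at -530 and 1250 bp. The members just inside the limit were Rpl10, with its summit 426 bp before the start, Rpl35, 359 bp after it, and a secondary Rps14 peak, 347 bp after it. Rpl18 and Rps10 had 2 members each and Rps14 had 3, and the Rpl3 member lies at an internal start.

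In each of the 3 lines the named factor carries FKBP F36V, the tag through which dTAG-13 sends a protein to the proteasome. SOX2-FKBP and NANOG-FKBP were knocked into E14 cells, of which homozygous clones were taken, and OCT4-FKBP is a line in V6.5 cells obtained from another laboratory. Cells grew in serum-free medium with LIF, a MEK inhibitor and a GSK3 inhibitor and received 500 nM dTAG-13 or DMSO, the latter named NT for not treated. SOX2-FKBP was sampled in NT and at 0.5, 1, 2, 6 and 24 h post depletion (hpd) with 2 libraries each, and OCT4-FKBP in NT and at 2, 6 and 24 hpd with 2 libraries each. NANOG-FKBP had 2 NT libraries and 3 at each of 2, 6 and 24 hpd. No line without a tag was treated in these libraries, each line stands for 1 genetic background, and how much of each protein was left was not measured in them, so effects of the factor, the line and the compound cannot be told apart. The methods of the study name duplicates and, for SOX2, an independent clone, without saying which libraries here are separate cultures or clones, and p-values measure the spread between libraries, which may be technical.

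A cytosolic ribosome joins a small subunit, which reads the mRNA, to a large subunit, which forms the peptide bond, and each ribosomal protein is made from a housekeeping gene that is transcribed strongly in every growing cell. The promoters are rich in GC, are open in most cell types and mostly lack a TATA box. Their mRNAs often begin with a run of pyrimidines, the 5′ terminal oligopyrimidine (TOP) tract, through which mTOR signalling controls their translation, and ETS factors such as GABPA are known to bind many of them. Embryonic stem cells divide fast, and SOX2 and OCT4 are known mainly for opening enhancers. The comparison therefore asks how a set of promoters that every cell uses behaved when a pluripotency factor was lost.

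The sequences of 5 members are shown to give these elements a concrete form: the member with the largest called gain, a secondary start of Rpl18, then Rps6, whose protein is the target of S6 kinase, Rpsa, whose protein also serves as the laminin receptor precursor, Rps26, which lines the mRNA exit channel, and Rplp0, the base of the stalk that recruits elongation factors. Each run holds 250 bases before the annotated start and 30 from it on, 5′ to 3′ on the gene's strand, from GRCm38.p6 (mm10), so that the start is the base after the first 250. Capitals mark CCGGAA on either strand, the core of an ETS site, and CTTTC or CTTCC starting within 20 bases of the start on the gene's strand, the pattern used here for a TOP tract. This TOP pattern can lie on either side of the start.
Rpl18 secondary start: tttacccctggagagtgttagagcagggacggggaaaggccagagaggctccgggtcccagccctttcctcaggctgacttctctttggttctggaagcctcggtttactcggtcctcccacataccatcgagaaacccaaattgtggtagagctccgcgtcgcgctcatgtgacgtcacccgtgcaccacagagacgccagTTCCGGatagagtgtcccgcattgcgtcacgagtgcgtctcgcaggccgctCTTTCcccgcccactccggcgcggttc
Rps6: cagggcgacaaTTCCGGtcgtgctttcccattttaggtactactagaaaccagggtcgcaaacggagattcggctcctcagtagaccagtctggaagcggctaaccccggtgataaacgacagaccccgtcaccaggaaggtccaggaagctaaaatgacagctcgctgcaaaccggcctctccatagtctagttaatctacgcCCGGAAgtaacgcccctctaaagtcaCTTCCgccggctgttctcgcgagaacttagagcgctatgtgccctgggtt
Rpsa: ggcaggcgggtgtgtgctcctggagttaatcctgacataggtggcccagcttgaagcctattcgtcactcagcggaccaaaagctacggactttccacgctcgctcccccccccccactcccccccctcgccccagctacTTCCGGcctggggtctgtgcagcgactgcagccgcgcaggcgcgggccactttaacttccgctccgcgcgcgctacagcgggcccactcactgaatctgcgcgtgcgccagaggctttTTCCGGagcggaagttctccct
Rps26: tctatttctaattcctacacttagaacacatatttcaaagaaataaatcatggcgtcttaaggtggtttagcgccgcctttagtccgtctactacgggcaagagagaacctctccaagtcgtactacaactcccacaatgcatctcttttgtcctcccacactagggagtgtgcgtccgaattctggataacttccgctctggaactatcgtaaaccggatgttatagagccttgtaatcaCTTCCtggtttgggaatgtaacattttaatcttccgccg
Rplp0: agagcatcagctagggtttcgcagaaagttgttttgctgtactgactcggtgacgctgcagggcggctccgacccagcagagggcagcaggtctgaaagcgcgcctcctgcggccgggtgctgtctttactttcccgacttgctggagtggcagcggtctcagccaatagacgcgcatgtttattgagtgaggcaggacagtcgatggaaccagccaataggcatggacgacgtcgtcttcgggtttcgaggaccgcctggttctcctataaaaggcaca
The Rpl18 secondary start is on the plus strand of chromosome 7 at 45718071, and its stretch is chr7:45717821-45718100. Rps6 starts on the minus strand of chromosome 4 at 86857412 (chr4:86857383-86857662) and Rpsa on the plus strand of chromosome 9 at 120127689 (chr9:120127439-120127718). Rps26 starts on the minus strand of chromosome 10 at 128626747 (chr10:128626718-128626997) and Rplp0 on the plus strand of chromosome 5 at 115559467 (chr5:115559217-115559496). Rps6 holds 2 ETS cores and the TOP pattern, Rpsa holds 2 ETS cores, the Rpl18 secondary start holds 1 of each pattern, Rps26 the TOP pattern, and Rplp0 neither. In Rps6 and Rps26 the TOP pattern lies before the annotated start, outside the annotated mRNA, so it is not shown to be a TOP tract there.

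Over all members, the ETS core was found in the window from 250 bases before to 50 after the start in 38 of 79 (48.1%), against 22.2% of 16000 peaks at other protein-coding promoters. The TOP pattern was found in 31 of 79 (39.2%) against 14.4%, and in 29 of the 31 at least 1 match was clear of any ETS core, with which CTTCC can share letters. Both patterns were present in 18 members and neither in 28. GGGCGG, bound by SP and KLF factors, was in 49.4% of members and 58.9% of other promoters, and CCAAT, bound by NF-Y, in 30.4% and 36.9%. In whole peaks the order of GGGCGG turned, with 89.9% of members and 78.2% of other promoter peaks. AAGATGGC, bound by YY1, was in 6.33% and 3.58% of windows and the E-box CACGTG in 11.4% and 9.61%, and the NRF1 site in 6.33% and 7.91%. The order of the NRF1 site turned in whole peaks as well, to 12.7% and 11.8%. There the ETS core was in 82.3% and 47.9%, AAGATGGC in 17.7% and 9.44% and CACGTG in 36.7% and 25.8%. TATAAA between 40 and 20 bases before the start, where a TATA box acts, was in 0 of 79 members, and in 0.969% of other promoters. Anywhere in the window it was in 5 of 79 members (6.33%) and in 4.29% of other promoters. The letters that SOX factors bind, ACAANG, were in 34.2% of member windows and 33.5% of others, while the octamer ATGCNAAT of POU factors was in 1.27% and 2.63% and the SOX-POU composite in 0 of 79 and 0.0563%. All patterns but TATAAA and the TOP tract were searched on both strands, and a match is a description and not a bound site.

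In NT cells the members were open to unlike degrees. Over the 6 NT libraries of the 3 lines the mean level had a median of 15.4 and quartiles of 12.2 and 19.4 CPM per kb of peak (counts relative to library depth, scaled by TMM, which aligns libraries on the bulk of their peaks). Other promoter peaks had a median of 10.6 and quartiles of 5.89 and 17.1 on the same scale, so the ranges overlapped. Among the most open members were Rpl13a, of the large subunit, with 44.3 and 43.4 CPM per kb in the SOX2-FKBP, 42.3 and 36.6 in the OCT4-FKBP and 47.1 and 49.9 in the NANOG-FKBP libraries (mean 43.9 ± 4.53, SD, n = 6), and the main Rpl18 peak, with 41.8 ± 6.12 (SD, n = 6). The libraries of both overlap, so their order is not fixed by the data. At the other end stood Rps4x, the X-linked small subunit gene, with 6.30 ± 0.809, and the 2 secondary Rps14 peaks, with 6.55 ± 1.18 and 5.47 ± 0.981 CPM per kb, again with overlapping libraries. The stalk genes Rplp0, Rplp2 and Rplp1 had 25.5 ± 1.53, 23.7 ± 3.26 and 23.1 ± 4.07, and Rpl3, Rpsa, Rpl10, Rps26 and Rps6 lay between 14.0 and 17.8 CPM per kb.

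**Figure D1:**
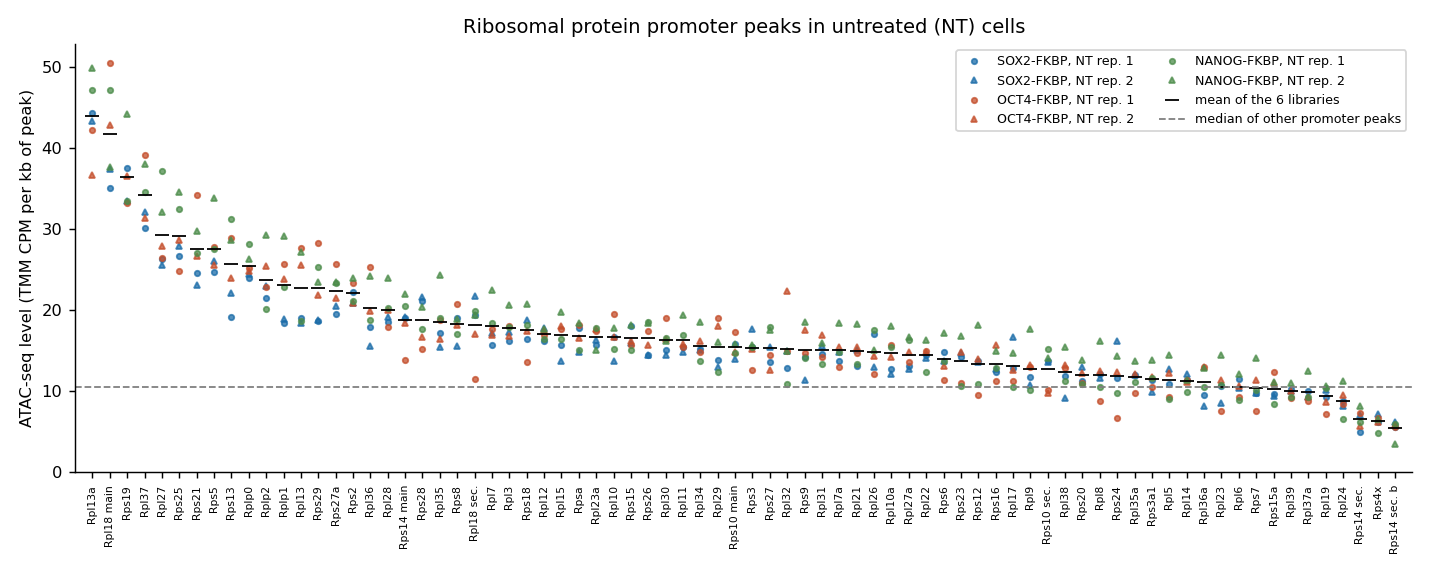
ATACseq level of 76 of the 79 ribosomal protein promoter peaks in untreated (NT) cells, in TMM CPM per kb of peak, ordered by their mean. Points are the 6 NT libraries, coloured by line, black bars their mean, and the dashed line is the median of other promoter peaks (10.6). The plotted means run from 43.9 at Rpl13a to 5.47 at a secondary Rps14 peak, with most members above the dashed line.

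The peaks themselves were of ordinary promoter size, 652 to 2935 bp wide with a median of 1180 bp, against 1274 bp for other promoter peaks and 636 bp for all peaks. Their median GC content was 56.9%, against 57.7% and 50%. The fold enrichment that the authors' peak caller gave over local background had a median of 7.08, against 8.48 at other promoters and 3.14 over all peaks. The median summit lay 33 bp before the start, and 14 of the 79 peaks also held the start of another protein-coding gene, as at Rpl15 (Nkiras1) and both Rpl18 peaks (Sphk2), so that their counts cannot be assigned to 1 gene.

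Total counts over all peaks lay between 1817191 and 17575631 per library, and the median count of a member between 30 and 373. The 3 treated NANOG-FKBP libraries of replicate 2 stood apart, with the lowest totals (1817191 to 3272168) and with 13.2 to 17.6% of counts on the mitochondrial genome, against 1.42 to 6.65% in all other libraries. As a check of the cell type, 9 of 10 pluripotency genes, all but Pou5f1, had a tested promoter peak. Their median level was 17.2 CPM per kb in NT (Zfp42 44.98, Nanog 32.3, Sox2 13.2). The lowest was Esrrb with 5.97, and Dppa3 ran from 0.644 to 33.1 between NT libraries. Of 11 genes of other cell types 8 had a tested peak, with a median of 5.86 (the highest was Sox17 with 15.8). In bulk samples, fewer cells with an open promoter and a less open promoter in each cell cannot be told apart.

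Up to 6 h after SOX2 depletion no ribosomal protein promoter passed the main test for a change, which has no block for the replicate number. Of the 79 members, none were called at 0.5, 1, 2 or 6 hpd of SOX2 (adjusted p below 0.05, edgeR quasi-likelihood test against NT, Benjamini-Hochberg over 160432 peaks), where 3.30%, 6.35%, 8.74% and 11.9% of all peaks were. Their median log2 fold changes were 0.03, 0.00, -0.02 and 0.12, next to 0.00, 0.00, -0.02 and 0.13 at other promoters. At an unadjusted p below 0.05 there were 0, 1, 1 and 1 members, and DESeq2 called 0 at each time. The member behind the values at 1 and 2 hpd was the more upstream secondary Rps14 peak, with 5.26 and 5.98 CPM in NT, 8.25 and 10.4 at 1 hpd and 7.003 and 8.995 at 2 hpd. Its log2 fold change at 1 hpd was 0.73 ± 0.24 (SE) with an adjusted p of 0.0686, and with the replicate number as a block it was called (log2 fold change 0.72, adjusted p 0.0130). At 6 hpd the member was Rps7 (0.41 ± 0.18, adjusted p 0.167), which the block also called (0.39, adjusted p 0.0491). At 2 hpd the members ran from -0.26 to 0.53 on the log2 scale, so that a change of 2-fold was not seen at any of the 79.

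After 24 h without SOX2, 17 of 79 members (21.5%) were gained and 0 were lost, against 9.17% of all peaks gained and 14.1% lost. The 17 were 11 peaks of the large subunit, of 45, and 6 of the small, of 34. The 5 named next were chosen among those with both libraries at 24 hpd above both NT libraries. That order held at 61 of 79 members and 64.4% of other promoter peaks. Rpl23, a large subunit gene, had the largest gain, from 14.4 and 11.6 CPM in NT to 19.3 and 23.1 at 24 hpd, a log2 fold change of 0.69 ± 0.19 (SE, adjusted p 0.00615). Rps7, one of the small subunit genes mutated in Diamond-Blackfan anaemia, went from 17.95 and 18.12 to 22.7 and 31.9 (0.60 ± 0.18, adjusted p 0.0146). Rps27, of the small subunit, went from 14.6 and 16.7 to 20.7 and 26.3 CPM (0.60 ± 0.17, adjusted p 0.0093). In these 3 replicate 2 is the higher of the 24 hpd libraries. Rpl19 went from 11.9 and 13.1 to 14.4 and 23.3 CPM (0.60 ± 0.20, adjusted p 0.0234), so that its 24 hpd libraries lay farther apart than the group means. Rpl15 went from 31.6 and 27.8 to 41.0 and 46.3 CPM (0.55 ± 0.15, adjusted p 0.00506). All 5 lost their call without the 24 hpd replicate 2 library, where the log2 fold change was 0.22 at Rpl19, 0.34 at Rps7 and 0.43 at Rps27, and each lost it also without at least 1 of the NT libraries. Among the stalk genes and the others listed by name in the rule for named genes only Rplp1 of the stalk was also called, from 18.5 and 19.1 to 26.0 and 26.1 CPM (0.47 ± 0.16, adjusted p 0.0271), a call that was lost without any 1 of the 4 libraries. Rplp0, Rplp2, Rpsa, Rps26, Rpl3, Rps6, Rps4x and Rpl10 had log2 fold changes of 0.16 to 0.44 and did not pass.

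The values of other promoters were close to those of the members at this time. Their median log2 fold change was 0.33 and that of other promoter peaks 0.32, of which 3727 of 15626 (23.9%) were gained. Mitochondrial ribosomal protein promoters had 20 of 82 gained (median 0.38), translation factor promoters 16 of 53 (median 0.34) and ribosome biogenesis promoters 30 of 101 (median 0.36), with 0 lost in each list. Other promoters together took 25.7 and 26.0% of counts in NT and 31.1 and 33.2% at 24 hpd. When libraries were scaled by TMM on promoter peaks alone, which moves the median of all peaks from 0.04 to -0.27, the members' median became 0.02 and 0 of 79 were gained. The count rested on few libraries: it was 1 without the 24 hpd replicate 2 library, 3 and 2 without NT replicate 1 or 2, and 20 without 24 hpd replicate 1, while with the replicate number as a block it was 34, and DESeq2 called 4 (Rpl15, Rpl23, Rpl27 and Rpl7).

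**Figure D2:**
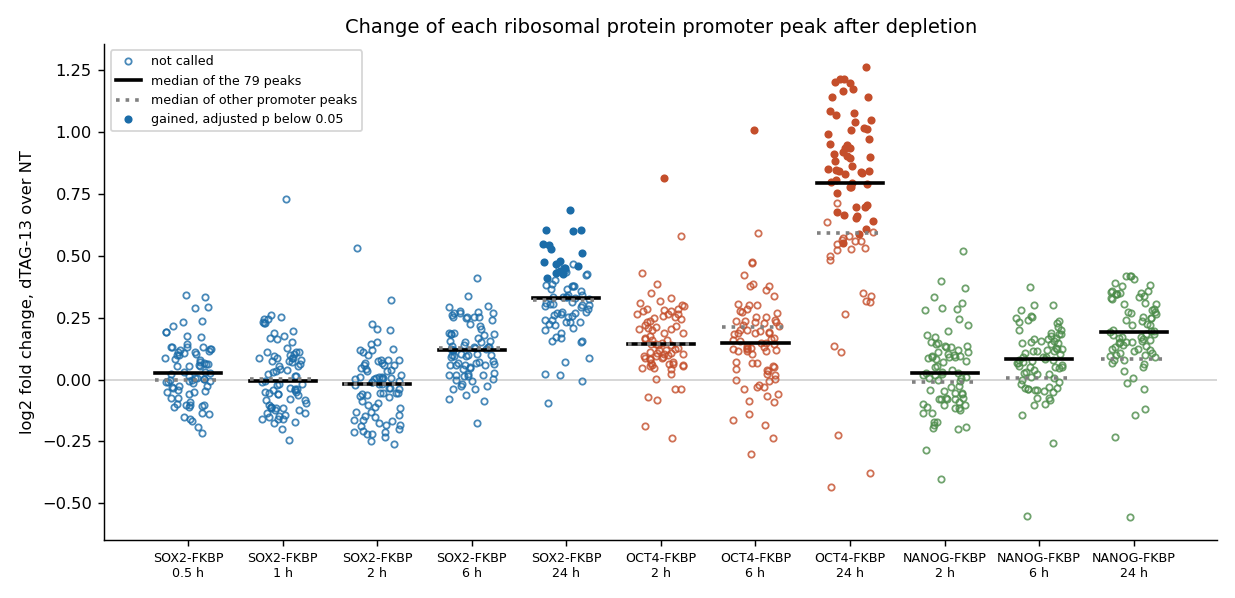
Log2 fold change of each of the 79 members (points) in the 11 comparisons of dTAG-13 with NT, filled where gained at adjusted p below 0.05. Black bars are the members' median and dotted bars that of other promoter peaks. Calls are at 24 hpd of SOX2 (17) and OCT4 (55) and for a single peak at 2 and at 6 hpd of OCT4, and the black and dotted bars lie farthest apart at 24 hpd of OCT4 (0.79 and 0.59) and of NANOG (0.19 and 0.08).

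Early after loss of OCT4 a single member passed the test. At 2 and at 6 hpd 1 of 79 was gained and 0 were lost, where 1.92% and 4.12% of all 166430 tested peaks were gained and 5.10% and 7.97% lost. The medians were 0.14 and 0.15, next to 0.14 and 0.21 at other promoters, and they turned to 0.00 and -0.08 with promoter scaling and to -0.02 and -0.07 with an offset for GC content. It was the secondary Rps10 peak (chr17:27636387-27637059), at an upstream start of this small subunit gene. It held 6.82 and 6.61 CPM in NT, 13.4 and 10.3 at 2 hpd, 17.7 and 9.26 at 6 hpd and 7.33 and 8.79 at 24 hpd. Its level was thus above NT in every treated library, highest in replicate 1 at 6 hpd and close to NT again at 24 hpd. The log2 fold changes were 0.81 ± 0.25 (SE, adjusted p 0.0321), 1.01 ± 0.24 (adjusted p 0.00265) and 0.26 ± 0.27 (adjusted p 0.538). In SOX2-FKBP the same peak was at 10.4 and 10.4 CPM in NT and between 8.33 and 11.2 afterwards. In NANOG-FKBP it was at 10.3 and 9.49 in NT and between 4.54 and 8.41 in the 9 treated libraries, all below NT, without passing the test (adjusted p 0.376 at 24 hpd). The OCT4 calls were lost without the treated replicate 1 library at 2 or at 6 hpd, and at 2 hpd also without either NT library and with DESeq2. With the replicate number as a block 5 members were gained at 6 hpd, among them Rpl15, Rpl27 and Rpl37.

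After 24 h without OCT4, 55 of 79 members (69.6%) were gained and 0 were lost, against 10.8% of all peaks gained and 12.7% lost. The gains took in 34 of 45 large subunit and 21 of 34 small subunit peaks and ran from 0.55 at Rpl12 to 1.26 at the Rpl18 secondary peak on the log2 scale. The Rpl18 secondary peak (chr7:45717708-45718359), whose sequence is shown above and which also holds a start of Sphk2, went from 7.47 and 11.1 CPM in NT to 27.5 and 17.4 at 24 hpd (1.26 ± 0.24, SE, adjusted p 1.04e-04). Rps6, with its ETS cores and TOP pattern, went from 13.6 and 15.7 to 38.2 and 30.1 CPM (1.21 ± 0.23, adjusted p 9.32e-05). In both of these the 24 hpd libraries lie above both NT libraries, as the rule for named members requires, and replicate 1 is the higher. Both 24 hpd libraries lay above both NT libraries at 72 of 79 members and 67.1% of other promoter peaks. Rpl8 went from 7.80 and 11.04 to 24.9 and 18.7 CPM (1.20 ± 0.23, adjusted p 1.02e-04). Rps24 went from 7.96 and 14.6 to 29.8 and 22.6 CPM (1.20 ± 0.25, adjusted p 2.92e-04), with the NT libraries nearly 2-fold apart. These 4 kept their call when any 1 library was left out, and without NT replicate 1 the log2 fold change at Rps24 was 0.82.

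**Figure D3:**
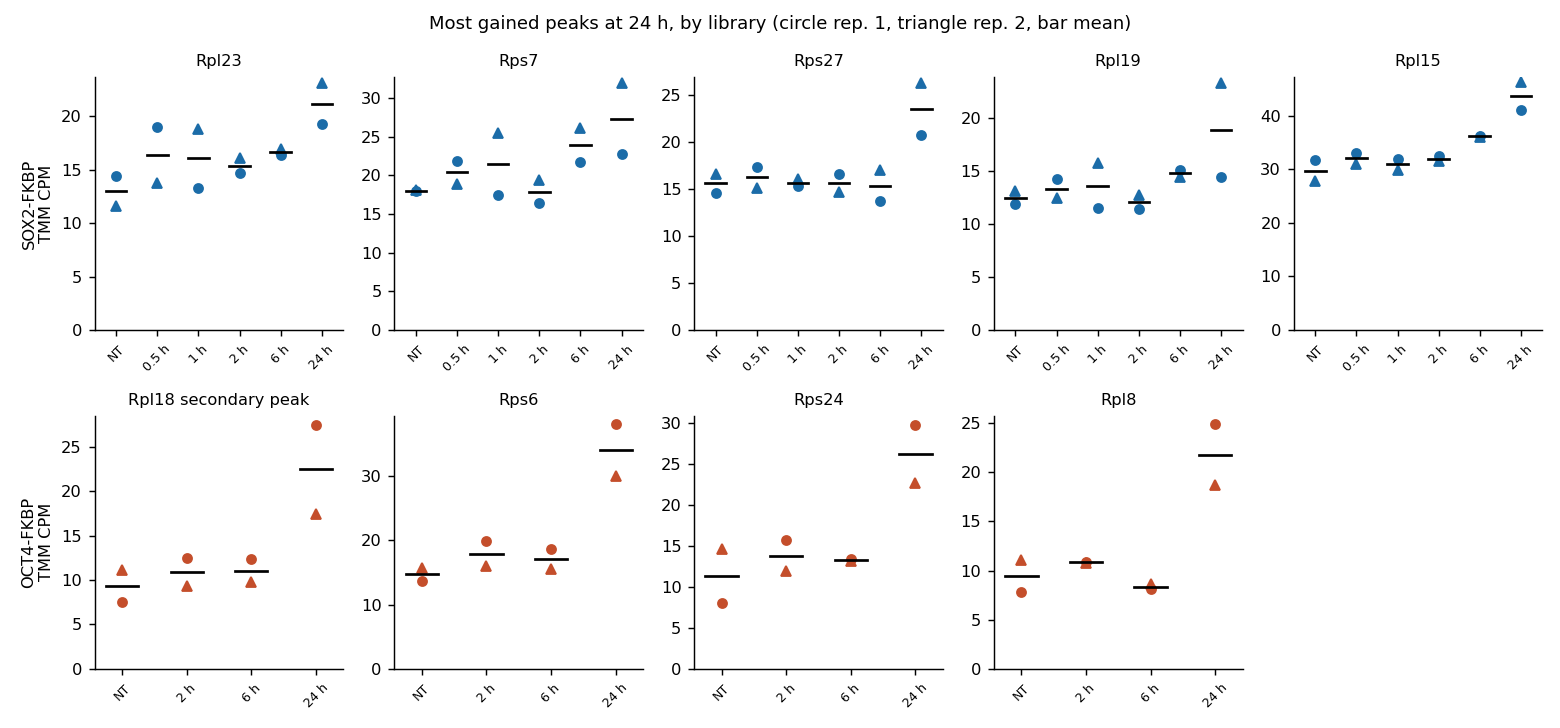
TMM CPM of 5 members with the largest called gain at 24 hpd of SOX2 (upper row, blue) and of 4 of the 5 with the largest at 24 hpd of OCT4 (lower row, red) in each library and at each time (circle replicate 1, triangle replicate 2, bar their mean). Levels stay near NT until 6 h in most panels and rise at 24 h, where the libraries are widely spaced, as for Rpl18 secondary (27.5 and 17.4).

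The stalk genes Rplp1 (from 22.9 and 21.3 to 40.3 and 25.9 CPM, 0.59 ± 0.22, adjusted p 0.0483) and Rplp2 (from 25.5 and 28.3 to 47.7 and 38.6 CPM, 0.68 ± 0.20, adjusted p 0.0118) were gained. Rps26 (0.80 ± 0.21, adjusted p 0.00462) and Rps4x (0.91 ± 0.24, adjusted p 0.00404) were gained as well. Rplp0, Rpsa, Rpl3 and Rpl10, of the latter of which the protein joins the large subunit late in assembly, had log2 fold changes of 0.53 to 0.56 and did not pass (adjusted p 0.0586 to 0.0879). Of the most open members, the main Rpl18 peak went from 57.0 and 48.3 to 45.4 and 32.5 CPM (-0.43 ± 0.27, adjusted p 0.260), while its secondary peak rose. Rpl13a was gained (from 37.8 and 32.7 to 76.4 and 53.2 CPM, 0.88 ± 0.24, adjusted p 0.00491). The calls at Rplp1, Rplp2, Rps26, Rps4x and Rpl13a were lost without the 24 hpd replicate 1 library, where the log2 fold changes were 0.22, 0.51, 0.50, 0.68 and 0.58, and without NT replicate 2, and those at Rplp1 and Rplp2 also without NT replicate 1. Rpl36 also had a negative log2 fold change (-0.38 ± 0.32, adjusted p 0.437). The loss at the main Rpl18 peak passed the test once replicate number was a block (-0.45 ± 0.17, adjusted p 0.0321) and with promoter scaling (-1.04 ± 0.26, adjusted p 0.00248).

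Many other promoters were gained at the same time. Of other promoter peaks 7277 of 15729 (46.3%) were gained with a median log2 fold change of 0.59, against 0.79 for the members. The promoters of related housekeeping lists were close to the members, with 63 of 82 mitochondrial ribosomal protein peaks (median 0.81), 38 of 53 translation factor peaks (0.77) and 79 of 101 ribosome biogenesis peaks (0.77) gained and 0 lost in each. Pluripotency gene promoters, in contrast, had 3 lost and 2 gained of 10 peaks, and promoters of other cell types 2 gained of 11 peaks. Other promoters took 28.8 and 28.4% of counts in NT and 42.1 and 36.1% at 24 hpd, and the members 0.172 and 0.182% and then 0.278 and 0.235%. Among promoter counts alone the members held 0.593 and 0.638% in NT and 0.655 and 0.645% at 24 hpd. With TMM on promoter peaks, which moves the median of all peaks from -0.01 to -0.61, the members' median was 0.18 next to -0.01 for other promoters, and 3 members (Rpl18 secondary, Rpl32 and Rps6) were gained and 2 (Rpl18 main and Rpl36) lost. Over all peaks the split changed with it, from 18027 gained and 21078 lost to 3261 and 47522. The part that a shift of reads toward promoters plays in these gains was not tested. The count was 15 without the 24 hpd replicate 1 library and 36 without NT replicate 2, and with the replicate number as a block 69 were gained and 1 lost.

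**Figure D4:**
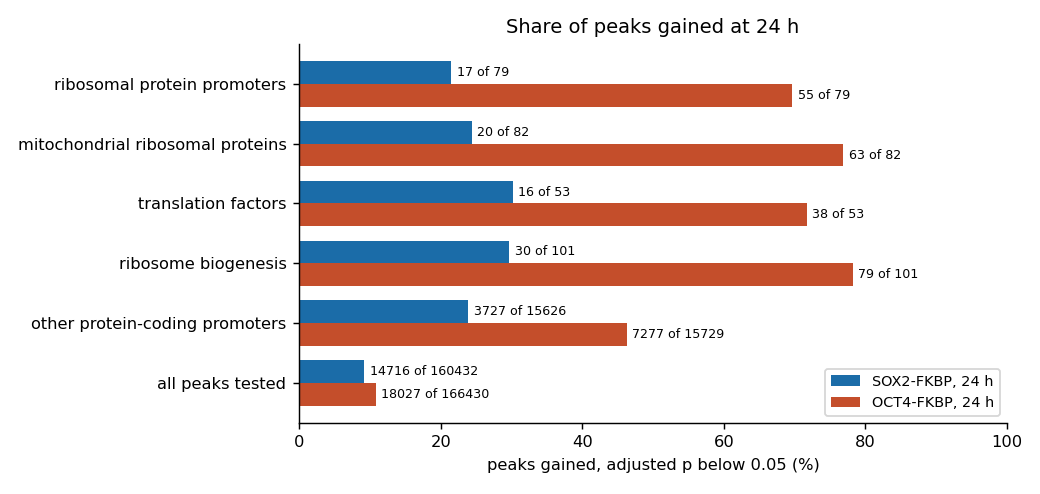
Share of peaks gained at 24 hpd (adjusted p below 0.05) in SOX2-FKBP and OCT4-FKBP for the members, 3 related lists, other promoters and all peaks, with counts beside the bars. The members (17 of 79 and 55 of 79) lie near the related lists in both lines.

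NANOG loss gave no call. At 2, 6 and 24 hpd 0 of 79 members were called by edgeR, where 0.954%, 1.12% and 2.54% of all peaks were. The medians were 0.03, 0.08 and 0.19, next to -0.01, 0.01 and 0.08 at other promoters. At 24 hpd 73 of 79 members had a positive log2 fold change, as did 64.7% of other promoter peaks. At an unadjusted p below 0.05 there were 0, 1 and 2 members, and DESeq2 called 0 at each time. The members were the secondary Rps10 peak given above and, at 24 hpd, Rps28 (0.42 ± 0.20, adjusted p 0.434), which stood at 15.9 and 18.3 CPM in NT and at 20.3, 24.98 and 24.07 at 24 hpd. Without the 3 shallow replicate 2 libraries the count stayed at 0 and the median at 24 hpd was 0.16.

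**Figure D5:**
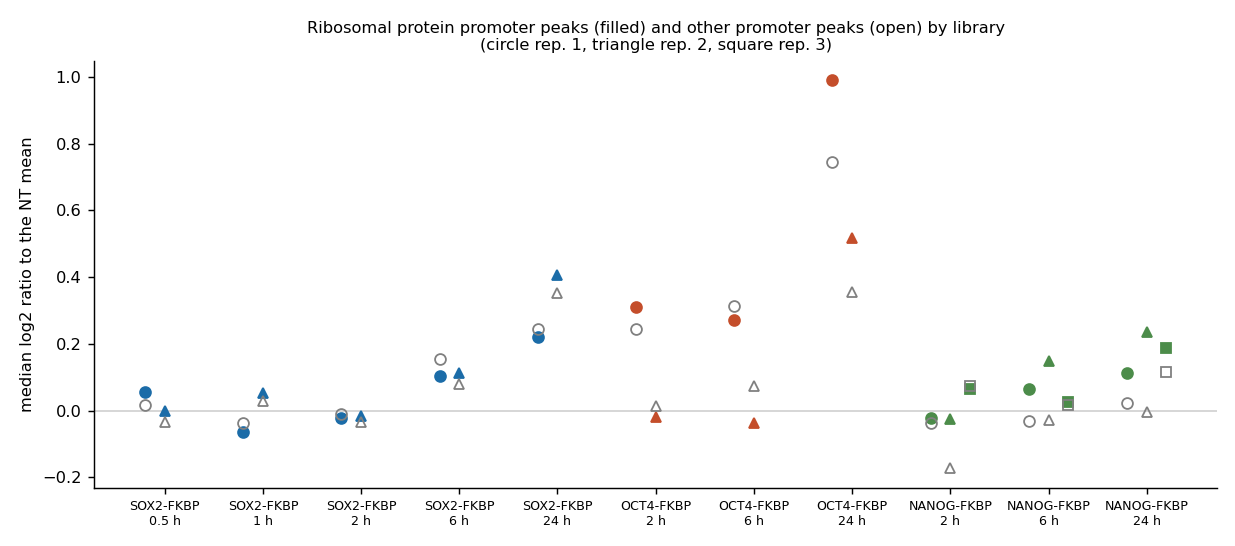
Median log2 ratio of each treated library to the NT mean of its line, over the 79 members (filled) and over other promoter peaks (open), with the replicate shown by the symbol. In SOX2-FKBP the filled and open symbols lie close together, and in the replicate 2 libraries of NANOG-FKBP the filled ones lie higher. At 24 hpd of OCT4 replicate 1 lies at 0.99 and replicate 2 at 0.52, and at 2 and 6 hpd of OCT4 replicate 1 lies at 0.31 and 0.27 and replicate 2 at -0.02 and -0.04.

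Whether the lines differed was tested on the difference of their changes in 1 fit of 27 libraries. There the SOX2-FKBP gains at 24 hpd numbered 1 of 79 (Rpl23, 0.73 ± 0.23, adjusted p 0.0243), where 4.87% of all peaks were gained, with the spread estimated over all 3 lines. The members' median was 0.37, so the counts of 17 and 55 do not come from the same fit. The change in OCT4-FKBP exceeded that in SOX2-FKBP at 73 of 79 members at 24 hpd, with a median difference of 0.37 on the log2 scale, next to 73.5% of other promoter peaks and a median of 0.24, and 0 members passed the test of the difference, where 2.77% of all peaks did. At an unadjusted p below 0.05 there were 14, and DESeq2 called 0. At 2 and 6 hpd 0 members passed, where 1.57% and 2.73% of all peaks did, with 1 each at an unadjusted p below 0.05 and 0 by DESeq2. With the replicate number as a block 6 members passed at 24 hpd, among them Rpl17 (1.02 ± 0.28, adjusted p 0.0134), Rpl26, Rps3 and Rps24 with the larger gain in OCT4-FKBP and the opposite at the main Rpl18 peak (-0.72 ± 0.24, adjusted p 0.0446). At 2 and at 6 hpd the block called the secondary Rps10 peak (0.99 ± 0.29 and 1.08 ± 0.29, adjusted p 0.0309 and 0.00902), which without it had differences of 1.01 ± 0.36 and 1.13 ± 0.35 (adjusted p 0.198 and 0.0774).

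CPM in this paragraph are scaled over the fit of 27 libraries, for SOX2-FKBP as well. Rpl17, with the next smallest adjusted p in the tests without the block, stood at 13.6 and 17.6 CPM in NT of SOX2-FKBP and at 12.1 and 19.8 at 24 hpd. In OCT4-FKBP it stood at 11.8 and 13.3 and then at 31.6 and 21.6 CPM (difference 1.04 ± 0.36, adjusted p 0.120). Rps3 (0.85 ± 0.29, adjusted p 0.125) and Rpl26 (0.92 ± 0.33, adjusted p 0.139) showed the same order. Between NANOG-FKBP and SOX2-FKBP 0 members passed at 2, 6 or 24 hpd, where 1.75%, 3.27% and 6.78% of all peaks did, with 0, 0 and 2 at an unadjusted p below 0.05 and 0 by DESeq2 each time. The median difference at 24 hpd was -0.14, next to -0.26 at other promoters, and the smallest adjusted p was 0.186, at Rpl28 (-0.69 ± 0.30). Rpl28 had 17.04 and 17.58 CPM in NT of SOX2-FKBP and 23.9 and 27.7 at 24 hpd, and in NANOG-FKBP 18.6 and 22.0 and then 20.0, 14.5 and 19.8. A block called it (-0.74 ± 0.25, adjusted p 0.0398), but replicate numbers do not pair NT with treated libraries in NANOG-FKBP.

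Of the 17 members gained at 24 hpd in SOX2-FKBP, 16 (94.1%) were also among the 55 gained in OCT4-FKBP, of which they are 29.1%, and the remaining one was Rps29. Since 55 of all 79 members were gained in OCT4-FKBP, much overlap follows from that share alone. The same overlap among other promoter peaks was not counted. The 2 lists come from separate NT and treated libraries of 2 lines and from the separate fits of 12 and 27 libraries. Across the 79 members the 2 log2 fold changes had a Pearson correlation of 0.41 and a Spearman correlation of 0.37, a description over promoters that share libraries, depth and base composition. The Spearman correlation of the change with the NT level per kb was 0.01 in SOX2-FKBP and -0.26 in OCT4-FKBP, with peak width -0.06 and -0.27, and with GC content 0.16 and 0.21. Members with an ETS core in their window had 12 of 38 gained in SOX2-FKBP and those without 5 of 41, with medians of 0.36 and 0.30. In OCT4-FKBP these were 27 of 38 and 28 of 41, with medians of 0.83 and 0.78. Members with the TOP pattern had 6 of 31 gained and those without 11 of 48 in SOX2-FKBP, and 23 of 31 and 32 of 48 in OCT4-FKBP, and these differences were not tested. The 4 secondary peaks and the Rpl3 peak had 0 of 5 gained in SOX2-FKBP and 1 of 5 in OCT4-FKBP, so the remaining 74 carried 17 and 54 of the gains.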

How the data were processed

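The deposited table holds ATACseq fragment counts per peak, raw whole numbers without normalization. Alignment by the authors was to mm10 (BWA 0.7.17-r1188, then a quality filter in SAMtools 1.10 and removal of duplicates in Picard 2.12.0). MACS2 was run on the merged time series, and fragments over each peak were counted in each library. The deposited peak list gives the authors' fold enrichment (a ratio to local background) and −log10 q-value of each peak for the merged libraries. Neither was used to compare samples. Of 45 samples, 31 have a count column, and 14 (overexpression, element deletion and wash-off) were not analysed here.

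The labels give NANOG-FKBP 3 libraries per treated time where the study's methods speak of duplicates, and the labels were followed. Members were found with GENCODE vM21 on GRCm38 (mm10). Any protein-coding transcript start was allowed, and 0 peaks end past a reference chromosome. The members and the gene lists were chosen with earlier results of these data known. Promoter lists hold peaks with a summit within 500 bp of a start. Named members are the 5 with the largest called gain or loss in each comparison with both treated libraries beyond both NT libraries, 9 fixed genes (Rplp0, Rplp1, Rplp2, Rpsa, Rps26, Rpl3, Rps6, Rps4x and Rpl10), the 3 with the highest and the 3 with the lowest NT level, and the 5 with the smallest adjusted p between lines. Members named outside this rule were chosen after their values were seen. Some members that the rule would name are not reported here.

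The main test was the quasi-likelihood F test of edgeR 4.0.16 (R 4.3.3) after TMM scaling, with p-values adjusted by Benjamini-Hochberg across every tested peak and a threshold of 0.05. The SOX2-FKBP fit took 12 libraries and the 160432 peaks that exceeded 10 counts in over 2 of them. A joint fit of 3 lines (line, time and interaction) took 27 libraries and the 166430 peaks that exceeded 10 counts in over 6. All 79 members passed both filters. Standard errors are the log2 fold change over the root of the F statistic. The step was tested on simulated data with known changes. DESeq2 1.42.0 (Wald test), the tool of the study's methods, and other scalings, filters, blocks and left-out libraries are alternatives. Per-library CPM carry counting error that depth limits.

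Replicate numbers come from the sample titles. Deviations from the group means of same-numbered libraries correlated at 0.113 to 0.347 over all 15 pairs of conditions in SOX2-FKBP and 0.220 to 0.487 over 6 in OCT4-FKBP (over peaks reaching 10 counts in each library of the line), so the numbers were taken to pair samples there. NT against treated alone gave 0.125 to 0.154 in SOX2-FKBP, a weak pairing, and 0.329 to 0.473 in OCT4-FKBP. In NANOG-FKBP NT against treated gave -0.200 to 0.347, and the numbers were not taken to pair NT with treated libraries. The main tests followed the study's model, which has no replicate term, and so they ignore this pairing in SOX2-FKBP and OCT4-FKBP. The replicate block was an alternative in all lines, and its counts stand beside those of the main tests. The shares of all peaks called with the block or by DESeq2 are not given. Member counts from these alternatives therefore do not show whether the members differ from other peaks.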

Additional observations from a re-analysis of the deposited data

How the results depend on the processing

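With the replicate number as a block, members gained were 1 at 1 hpd, 1 at 6 hpd and 34 at 24 hpd of SOX2 and 5 at 6 hpd of OCT4, 1 was lost at 24 hpd of OCT4, and members whose change differed between OCT4-FKBP and SOX2-FKBP were 1, 1 and 6 at 2, 6 and 24 hpd, and between NANOG-FKBP and SOX2-FKBP 1 at 24 hpd. The block changed no other count by more than 1.5 times. For the settings that follow, counts are likewise listed where they moved by more than 1.5 times. A setting that lists no gained count at 24 hpd of OCT4 thus left it within 1.5 times that of the main test. With the block and GC offsets, SOX2 gave 1 gained at 1 hpd, 1 lost at 2 hpd and 6 gained and 1 lost at 24 hpd, OCT4 gave 1 lost at 2 hpd, 3 lost at 6 hpd and 2 lost at 24 hpd, and OCT4-FKBP and SOX2-FKBP differed at 1, 1 and 10 members. GC offsets without a block, added after seeing the data, gave 2 gained at 24 hpd of SOX2, 0 gained at 2 hpd and 1 lost at 24 hpd of OCT4. TMM on promoter peaks gave 0 gained at 24 hpd of SOX2, 0 gained at 2 hpd, 1 lost at 6 hpd and 3 gained and 2 lost at 24 hpd of OCT4, and turned the log2 fold change of Rplp1, OCT4 24H, to -0.0346 (adjusted p 0.904). DESeq2 gave 4 gained at 24 hpd of SOX2 and 0 at 2 hpd of OCT4, while its 63 gained at 24 hpd of OCT4 stayed within that limit. Total counts gave 0 gained at 2 hpd, 2 at 6 hpd and 1 lost at 24 hpd of OCT4, at least 10 counts in every library 1 lost at 6 and at 24 hpd, and only the groups compared 0 gained at 2 hpd. Without the secondary peaks and Rpl3, also added afterwards, 0 were gained at 2 or 6 hpd of OCT4.

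Leaving out 1 library at a time gave 0 to 1 gained at 1 hpd (1 without treated replicate 2) and 1 to 20 at 24 hpd of SOX2 (1 without treated replicate 2, 3 and 2 without NT replicate 1 and 2), 0 to 1 at 2 hpd (0 without treated replicate 1 or either NT library), 0 to 1 at 6 hpd (0 without treated replicate 1) and 15 to 66 at 24 hpd of OCT4 (15 without treated replicate 1, 36 without NT replicate 2). The difference between OCT4-FKBP and SOX2-FKBP gave 0 to 1 at 6 hpd (1 without OCT4 treated replicate 2) and 0 to 1 at 24 hpd (1 without OCT4 NT replicate 2 or SOX2 treated replicate 2). A lone library was assumed to vary like the others. The causes of these changes were not tested, apart from the smaller number of members without the secondary peaks. In all, 471 of 521 alternative counts of called members lay within 1.5 times the reported value. Many of these counts were 0 in the main fit and stayed 0. The share therefore does not describe the gains at 24 hpd of SOX2 and OCT4, which moved as given above. A median member count of 30 in the shallowest library limits what NANOG-FKBP can show.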
